A study of Mus musculus with 12 samples.

Results

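The 10 genes described here carry out the synthesis, transport and breakdown of heme: Hmox1, Hmox2, Blvra and Blvrb (breakdown), Slc48a1, Abcb6 and Flvcr1 (transport), and Alas1, Cpox and Fech (synthesis). They were chosen by function, with earlier results of these data known. Each probe set whose annotation named exactly 1 of these symbols was taken. This gave 18 of the 45101 probe sets on the array, for 10 of the 18194 genes tested. The arrays measured RNA of the mouse liver line BNL CL.2 after 24 h of culture. In the group FAC the cells received the iron salt ferric ammonium citrate at 100 micromolar, and in the group alone they received no iron salt; in both, the culture insert held more BNL CL.2 cells. RAW_FAC combined the same iron salt with an insert of RAW 264.7 cells, a mouse macrophage line, and RAW had the macrophages without the iron salt. Each of the 4 groups had 3 arrays, numbered 1 to 3 in their titles, all 12 from this single line grown in the same serum-containing medium. The questions were what iron, the macrophages or both did to expression in the liver cells.

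Heme is an iron-containing porphyrin. Its synthesis begins in mitochondria with aminolevulinic acid synthase (Alas1 outside red cells), continues through the cytosol, and returns to mitochondria, where coproporphyrinogen oxidase (Cpox) acts late and ferrochelatase (Fech) inserts the iron. Heme oxygenases open the ring and release iron, carbon monoxide and biliverdin, and biliverdin reductases turn biliverdin into bilirubin. In liver, Alas1 is the controlled step of synthesis and is repressed by heme. Hmox1 is the inducible heme oxygenase, repressed by Bach1, which heme inactivates, and activated by the transcription factor NRF2 (gene Nfe2l2) through antioxidant response elements.

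The values are log2 signals, and they ran from 2.42 to 14.6 with array medians of 5.63 to 5.68. A change is a log2 difference between group means with its standard error (SE). The threshold was an adjusted p under 0.05 (limma, Benjamini-Hochberg over the 18194 genes). The model was fitted without and with the replicate number as an additive term (the replicate block), since arrays that shared a number deviated together. Arrays of 2 groups that carry the same number are called a same-number pair. Whether replicates were separate cultures is not stated, and the p-values therefore reflect only how far these samples spread, which may be technical. Of the 7 hepatocyte markers measured, Krt8, Krt18, Hnf4a and Afp averaged 14.28, 14.07, 10.45 and 9.04 over the 12 arrays. Ttr and Apoa1 averaged 6.49 and 6.24, under the median gene mean of 6.82, and Alb averaged 5.20, below every array's median. Of 10 macrophage markers, 0 passed in any of the 8 comparisons in limma, without or with the block (0 to 2 at an unadjusted p under 0.05), and their mean macrophage effects ran from -0.09 to 0.17. Ptprc averaged 3.50, Itgam 3.69 and Adgre1 4.96, while Csf1r averaged 6.46, Laptm5 6.91 and Cd14 12.04. The remaining macrophage markers averaged at most 5.56. Among the 4 erythroid markers measured (Hba-a1, Epb42, Gata1 and Klf1), 0 passed for iron. As a check of the iron treatment, Tfrc, the transferrin receptor whose mRNA is degraded in iron-replete cells, had 12.35, 12.14 and 11.46 in FAC arrays and 12.31, 12.18 and 11.55 in RAW_FAC arrays, against 13.28, 13.29 and 13.11 in alone arrays and 13.40, 13.16 and 13.07 in RAW arrays. Its mean iron effect was -1.22 ± 0.09 (adjusted p = 0.00066 with the replicate block), and it was the 1 gene that passed for the mean iron effect without the block.

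Promoter sequences show which of the heme genes carry an antioxidant response element core near their start. RefSeq windows of 250 bases before to 50 bases after a gene start (GRCm38.p6) were used for 7 of the 10 genes, in 11 windows; those of Hmox1, Slc48a1 and Fech were not analysed here. The core TGACNNNGC, searched on both strands (GCNNNGTCA on the other), was found in 2 of the 11 windows and in 4071 of all 32851 windows (12.4%). The Blvrb and Abcb6 windows are shown because these genes changed with iron in the fit with the replicate block, and the Blvra and Flvcr1 windows because they hold the core, which is in capitals. The Blvrb window lies at chr7:27447728-27448027 on the plus strand, that of Abcb6 at chr1:75180343-75180642 on the minus strand, that of Blvra at chr2:127070407-127070706 on the plus strand and that of Flvcr1 at chr1:191026141-191026440 on the minus strand.
Blvrb: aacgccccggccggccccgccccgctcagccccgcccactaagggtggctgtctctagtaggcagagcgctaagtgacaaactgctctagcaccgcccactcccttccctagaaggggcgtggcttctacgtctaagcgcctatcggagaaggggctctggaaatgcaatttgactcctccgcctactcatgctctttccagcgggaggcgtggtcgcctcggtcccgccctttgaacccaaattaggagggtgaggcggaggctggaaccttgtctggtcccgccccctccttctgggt
Abcb6: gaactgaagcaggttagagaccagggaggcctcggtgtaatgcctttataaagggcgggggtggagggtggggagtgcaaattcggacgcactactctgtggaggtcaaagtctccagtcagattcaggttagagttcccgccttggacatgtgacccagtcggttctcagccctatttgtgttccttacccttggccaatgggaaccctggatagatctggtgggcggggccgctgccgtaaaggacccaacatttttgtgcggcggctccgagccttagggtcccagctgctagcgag
Blvra: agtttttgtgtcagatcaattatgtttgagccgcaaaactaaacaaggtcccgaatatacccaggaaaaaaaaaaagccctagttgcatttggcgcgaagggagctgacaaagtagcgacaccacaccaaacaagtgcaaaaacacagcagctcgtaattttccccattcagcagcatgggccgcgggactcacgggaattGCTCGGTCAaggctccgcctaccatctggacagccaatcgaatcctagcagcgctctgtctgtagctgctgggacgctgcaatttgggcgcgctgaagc
Flvcr1: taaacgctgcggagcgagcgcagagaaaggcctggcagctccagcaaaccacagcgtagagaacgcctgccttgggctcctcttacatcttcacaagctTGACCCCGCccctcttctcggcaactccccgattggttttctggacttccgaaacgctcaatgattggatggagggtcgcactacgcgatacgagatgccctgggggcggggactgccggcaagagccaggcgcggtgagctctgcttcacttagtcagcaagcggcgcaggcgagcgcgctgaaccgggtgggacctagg
Counted along the printed window, the match's first base lay 49 bases before the Blvra start and 151 bases before the Flvcr1 start. The Flvcr1 core reads along the printed strand, and the Blvra core along the strand opposite to the printed one. The 2 Blvrb windows and the Abcb6 window held no match, as did those of Hmox2, Alas1 and Cpox. A match describes these letters only, and no binding was measured.

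Iron went with higher signals of Blvrb, Slc48a1, Hmox1 and Abcb6, by 1.23-fold to 1.51-fold, while Hmox2, Blvra, Flvcr1 and Alas1 stayed within 0.04 of 0 on the log2 scale in the mean iron effect (FAC and RAW_FAC against alone and RAW). These 4 genes belong to breakdown and transport; the 3 synthesis genes had mean iron effects of 0.03 to 0.22 and 0 of them passed. Without the block, 0 of the 10 genes passed in any comparison, where 0.00550% of all genes passed for the mean iron effect and 0% in FAC against alone and in RAW_FAC against RAW. At an unadjusted p under 0.05 in that limma fit, 5 of 10 members and 1185 genes stood for the mean iron effect, with 551 genes in FAC against alone and 1038 in RAW_FAC against RAW. With the replicate block, 4 of 10 passed for the mean iron effect, against 0.791% of all genes (144, of which 116 rose and 28 fell), and 12.3% of all genes had an unadjusted limma p under 0.05. In a fit to the 3 within-number differences per gene, 2 of 10 passed, Blvrb and Slc48a1, against 0.0330% of all genes. That fit called 0 of 10 members in FAC against alone and 0 of 10 in RAW_FAC against RAW, with 0% of all genes in each, although 5 members in each had an unadjusted limma p under 0.05, as did 6.69% and 7.88% of all genes. By direction alone, 6 of 10 genes were higher with iron in 6 of 6 same-number pairs, as were 4.14% of all genes. Because the 10 genes were listed with earlier results of these data known, these shares are no independent support. The RNA came from whole cultures, so a change in all cells and a change in some of them cannot be told apart.

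**Figure D1:**
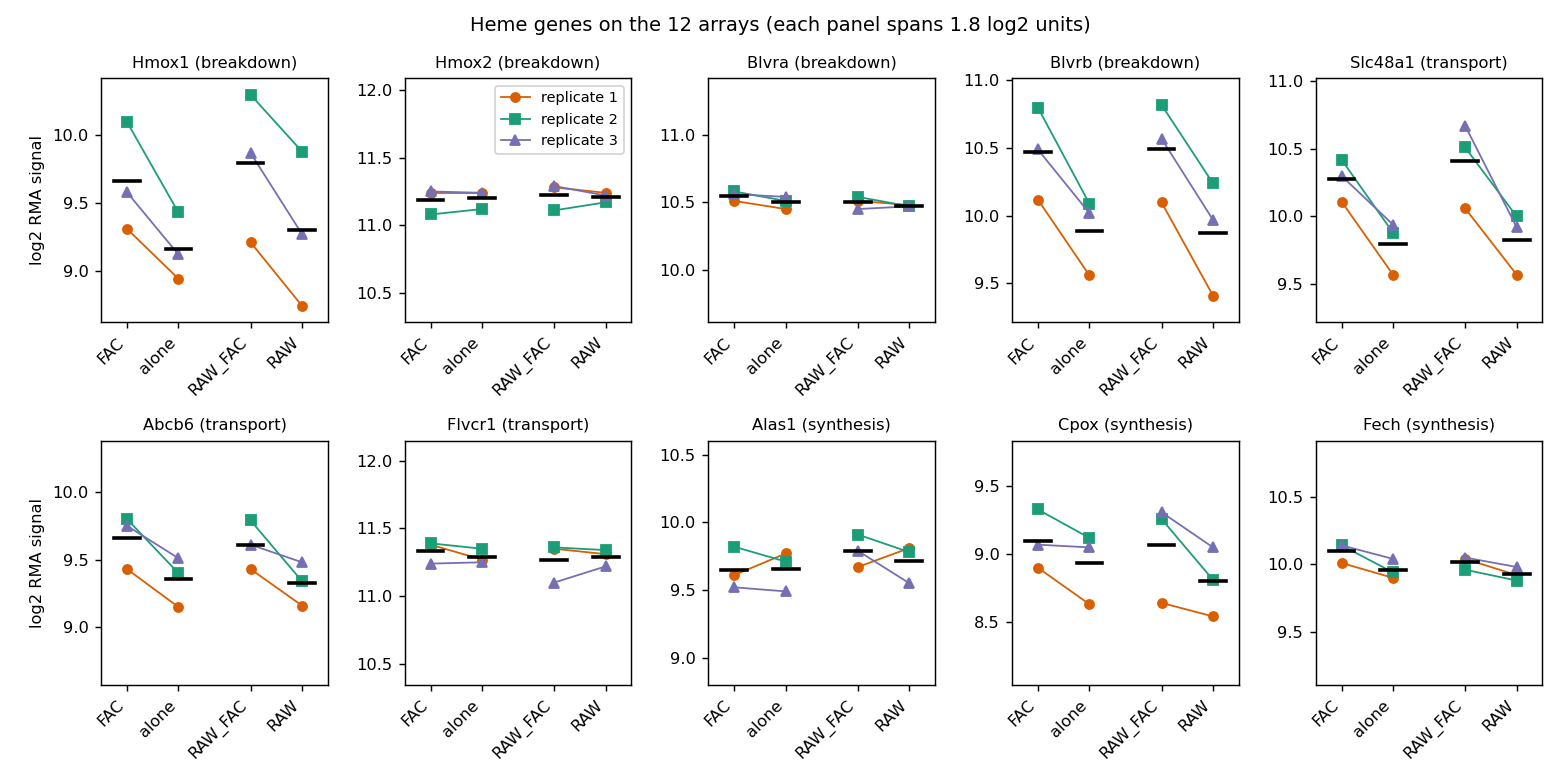
Log2 RMA signal (y axis, 1.8 units in each panel) of the 10 heme genes on the 12 arrays by group (x axis). Points are arrays, lines join arrays with the same replicate number, and black bars are means of 3 arrays; the lines of Hmox1, Blvrb, Slc48a1 and Abcb6 run higher on the iron side in all 6 pairs, with replicate 1 lowest in each group.

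Among the breakdown genes, Blvrb had the largest mean iron effect of the 10 members. Blvrb encodes biliverdin reductase B, a flavin reductase that also reduces biliverdin IX beta. It had 10.12, 10.80 and 10.49 in FAC arrays (replicates 1, 2 and 3), against 9.56, 10.09 and 10.02 in alone arrays. Each FAC array lay above each alone array, as was also so for Slc48a1. How many of all genes did so was not counted, so this separation carries no weight here. With macrophages it had 10.10, 10.82 and 10.57 in RAW_FAC arrays, against 9.41, 10.24 and 9.97 in RAW arrays. These groups overlapped, because replicate 1 with iron was below replicate 2 without it. The change was 0.58 in FAC against alone, with an SE of 0.24 without the block and 0.06 with it. Blvrb was the 1 member of 10 that passed there with the replicate block (adjusted p = 0.0270), against 0.0330% of all genes. The call was lost in the fit to the within-number differences (adjusted p = 0.218) and in 9 of the 12 fits with the block that left out 1 array, namely those without any 1 FAC or alone array, RAW_FAC replicate 2 or 3 or RAW replicate 3. In RAW_FAC against RAW it rose by 0.62 ± 0.06 with the replicate block (adjusted p = 0.0145), and 2 of 10 members passed, against 0.0769% of all genes. The within-number differences gave it an adjusted p of 0.124, so this call too was lost there. Its mean iron effect was 0.60 ± 0.05 with the replicate block (adjusted p = 0.00066), 1.51-fold, and its adjusted p was 0.533 without the block and 0.0462 from the within-number differences.

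Hmox1, the inducible heme oxygenase, was higher with iron in 6 of 6 pairs, but by less than it varied between replicate numbers. It had 9.31, 10.10 and 9.58 in FAC arrays, against 8.94, 9.43 and 9.12 in alone arrays. It had 9.21, 10.30 and 9.87 in RAW_FAC arrays, against 8.74, 9.88 and 9.27 in RAW arrays. In both comparisons the groups overlapped, while each same-number pair was higher with iron, by 0.36, 0.67 and 0.46 in FAC over alone and by 0.47, 0.42 and 0.59 in RAW_FAC over RAW. The change was 0.50 in FAC against alone (SE 0.30 without the block and 0.11 with it, adjusted p = 0.290 with the replicate block). In RAW_FAC against RAW the change was 0.49 (SE 0.30 without and 0.11 with the block, adjusted p = 0.160 with the replicate block). Only over both comparisons did it pass, with a mean iron effect of 0.49 ± 0.08 (adjusted p = 0.0177 with the replicate block), 1.41-fold. Its adjusted p was 0.744 without the block and 0.0773 from the within-number differences. That call was also lost with the replicate block on leaving out FAC replicate 1 or 2, RAW_FAC replicate 2 or 3 or RAW replicate 1. Over the 12 fits that each left out 1 array the effect was 0.43 to 0.56 and the adjusted p at most 0.0681.

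Hmox2 and Blvra, the constitutive heme oxygenase and the biliverdin IX alpha reductase that makes the main bilirubin, had no change that passed. Hmox2 had 11.24, 11.08 and 11.25 in FAC arrays, against 11.24, 11.12 and 11.24 in alone arrays. With macrophages the Hmox2 values were 11.28, 11.11 and 11.29 in RAW_FAC arrays, against 11.24, 11.17 and 11.22 in RAW arrays. These 12 values spanned 11.08 to 11.29, and the groups overlapped in each comparison. Blvra had 10.51, 10.58 and 10.56 in FAC arrays, against 10.45, 10.51 and 10.54 in alone arrays. Its values with macrophages were 10.51, 10.54 and 10.45 in RAW_FAC arrays, against 10.48, 10.47 and 10.47 in RAW arrays. The 95% intervals of the mean iron effect with the replicate block ran from -0.07 to 0.08 for Hmox2 and from -0.04 to 0.12 for Blvra. Hence within breakdown 2 of 4 genes passed for the mean iron effect with the replicate block, against 0.791% of all genes. Without the block 0 of 4 passed, and from the within-number differences 1 of 4. The median effect of 0.27 falls between the genes near 0 and those that passed, so it describes no single gene.

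**Figure D2:**
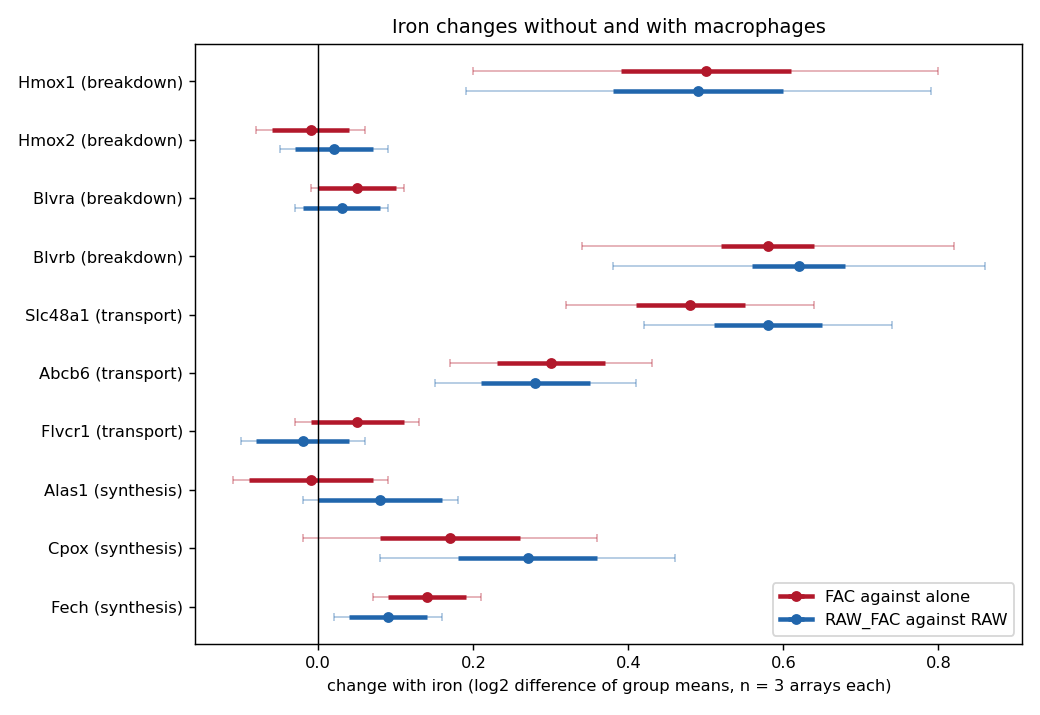
Change with iron (x axis, log2 difference of group means, n = 3 arrays each) of each heme gene (y axis) without macrophages (red, FAC against alone) and with them (blue, RAW_FAC against RAW). Thick bars are ± 1 SE with the replicate block and thin bars ± 1 SE without it; Blvrb lies at 0.58 and 0.62, and Hmox2 at -0.01 and 0.02.

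Among the transport genes, Slc48a1 separated the arrays by iron most cleanly. Slc48a1 (HRG1) encodes a heme transporter that carries heme out of lysosomes into the cytosol. It had 10.11, 10.42 and 10.30 in FAC arrays, against 9.57, 9.88 and 9.94 in alone arrays. With macrophages it had 10.06, 10.51 and 10.67 in RAW_FAC arrays, against 9.57, 10.00 and 9.92 in RAW arrays. The lowest of the 6 arrays with iron (10.06) was above the highest of the 6 without (10.00), which held for 1 of the 10 members and for 0.291% of all genes. Slc48a1 changed by 0.48 in FAC against alone (SE 0.16 without the block and 0.07 with it, adjusted p = 0.0889 with the replicate block). It rose by 0.58 ± 0.07 in RAW_FAC against RAW (adjusted p = 0.0188 with the replicate block), a call that was lost in the fit to the within-number differences (adjusted p = 0.169). The mean iron effect was 0.53 ± 0.05 (adjusted p = 0.00227 with the replicate block), 1.45-fold, with an adjusted p of 0.330 without the block and 0.0462 from the within-number differences. Its second probe set, a separate measure of the same gene, had 9.43, 9.80 and 9.60 in FAC arrays against 8.97, 9.28 and 9.36 in alone arrays. That probe set had 9.46, 9.86 and 9.91 in RAW_FAC arrays against 8.84, 9.42 and 9.30 in RAW arrays, and its mean iron effect was 0.48 ± 0.05 with the replicate block. Both probe sets were thus higher with iron in each same-number pair.

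Abcb6, a porphyrin transporter of the ABC family, had a change that was smaller and less firm. It had 9.43, 9.80 and 9.75 in FAC arrays, against 9.15, 9.40 and 9.51 in alone arrays. It had 9.43, 9.79 and 9.61 in RAW_FAC arrays, against 9.16, 9.34 and 9.48 in RAW arrays. The groups overlapped in both comparisons, and the 6 pairs were higher with iron by 0.13 to 0.45. The change was 0.30 in FAC against alone and 0.28 in RAW_FAC against RAW, with adjusted p = 0.290 and adjusted p = 0.175 with the replicate block. Its mean iron effect of 0.29 ± 0.05 passed with the replicate block (adjusted p = 0.0189) but not without it (adjusted p = 0.594) or from the within-number differences (adjusted p = 0.286). With the replicate block it passed in 4 of the 12 fits that left out 1 array, and was lost without FAC replicate 1, 2 or 3, alone replicate 1 or 2, RAW_FAC replicate 1 or 2 or RAW replicate 2, where the adjusted p reached 0.0776.

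Flvcr1, a plasma membrane heme exporter first described as the receptor of a feline leukemia virus and since also linked to choline transport, showed no change that passed. It had 11.38, 11.39 and 11.24 in FAC arrays, against 11.27, 11.35 and 11.25 in alone arrays. It had 11.35, 11.36 and 11.10 in RAW_FAC arrays, against 11.31, 11.34 and 11.22 in RAW arrays. Its mean iron effect was 0.02 (95% interval -0.07 to 0.10 with the replicate block), and its second probe set, at most 6.43 on any array, had an effect of -0.01.

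The synthesis genes did not pass in any comparison, although 2 of the 3 (Cpox and Fech) had an unadjusted limma p under 0.05 for the mean iron effect with the replicate block, against 12.3% of all genes. Alas1 had 9.61, 9.82 and 9.52 in FAC arrays, against 9.77, 9.71 and 9.49 in alone arrays. With macrophages Alas1 had 9.67, 9.91 and 9.79 in RAW_FAC arrays, against 9.81, 9.78 and 9.55 in RAW arrays. In both settings the pair of replicate 1 was lower with iron (-0.16 and -0.14) and the other pairs were higher. The mean iron effect of Alas1 was 0.03 with a 95% interval of -0.09 to 0.16 with the replicate block. Its second probe set ran from 7.86 to 8.31, with a mean iron effect of 0.06 ± 0.07.

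Cpox had the largest iron change of the synthesis genes. It had 8.90, 9.33 and 9.07 in FAC arrays, against 8.63, 9.12 and 9.05 in alone arrays. It had 8.64, 9.26 and 9.31 in RAW_FAC arrays, against 8.54, 8.81 and 9.05 in RAW arrays. The 6 pairs were higher with iron, by 0.02 to 0.45, and the groups overlapped. The mean iron effect was 0.22 (SE 0.13 without the block and 0.07 with it, adjusted p = 0.202 with the replicate block). The 2 other probe sets gave mean iron effects of 0.26 ± 0.05 (adjusted p = 0.0773 with the replicate block over all probe sets) and 0.16 ± 0.07, the second of them on signals of only 3.45 to 4.12.

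Fech had 10.01, 10.14 and 10.14 in FAC arrays, against 9.90, 9.94 and 10.04 in alone arrays. It had 10.04, 9.96 and 10.05 in RAW_FAC arrays, against 9.92, 9.88 and 9.98 in RAW arrays. The 6 pairs were higher with iron by 0.07 to 0.20, and the mean iron effect was 0.11 ± 0.04 (adjusted p = 0.264 with the replicate block). Its other 3 probe sets had mean iron effects of 0.04, 0.06 and 0.06, and each was lower with iron in at least 1 pair (by as much as -0.15), so the 6 of 6 held for 1 of the 4 probe sets.

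Set side by side within each pair, the mean change of the 4 breakdown genes exceeded that of the 3 synthesis genes in 6 of 6 iron pairs. In FAC over alone the breakdown genes averaged 0.24, 0.35 and 0.24 for replicates 1, 2 and 3, the transport genes 0.31, 0.32 and 0.20, and the synthesis genes 0.07, 0.18 and 0.05. In RAW_FAC over RAW the breakdown genes averaged 0.31, 0.25 and 0.31, the transport genes 0.27, 0.33 and 0.26, and the synthesis genes 0.03, 0.22 and 0.19. Breakdown minus synthesis was 0.28, 0.03 and 0.12 with macrophages and 0.17, 0.18 and 0.19 without them, so that it came close to 0 in replicate 2 with macrophages, where Cpox was 0.45 higher. In the macrophage pairs the same difference was -0.07, 0.25 and 0.00 in RAW over alone, and 0.04, 0.10 and -0.06 in RAW_FAC over FAC. The 0.25 was above each value of FAC over alone, so a gap of that size also occurred without an iron contrast. These averages mix genes that moved with genes that did not, and no test was made of them. Over the 10 members the median mean iron effect was 0.17 and 10 of 10 were above 0, while over all genes the median was 0.00 and 8896 of 18194 were above 0.

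**Figure D3:**
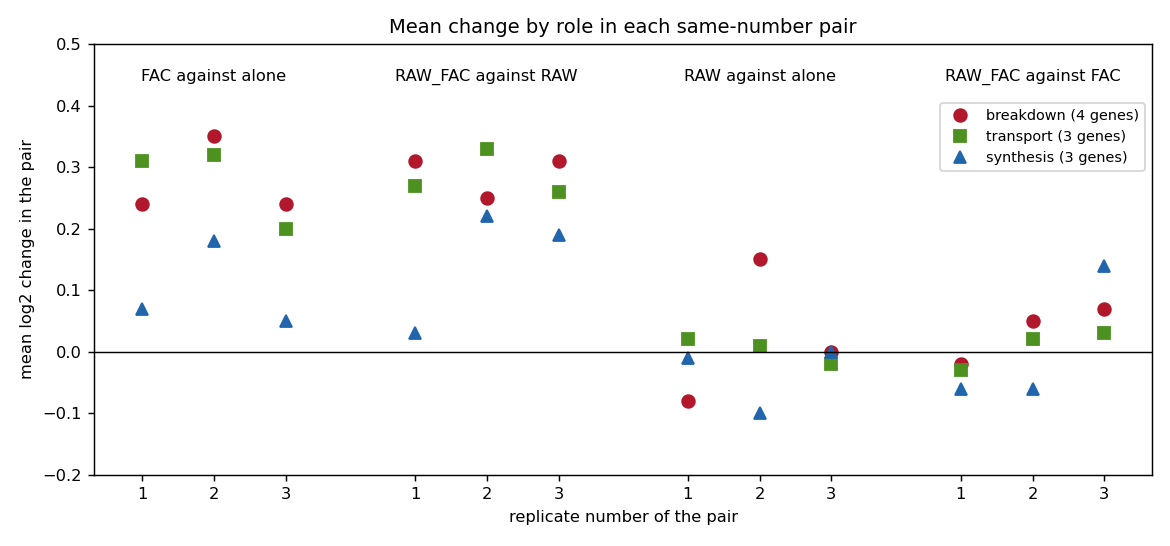
Mean log2 change of the breakdown, transport and synthesis genes (y axis) in each same-number pair (x axis, replicate number) for the 4 comparisons. In the 6 iron pairs on the left the breakdown genes lie at 0.24 to 0.35 and the synthesis genes at 0.03 to 0.22; in the 6 macrophage pairs on the right the points of each role lie on both sides of 0.

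Differences between replicate numbers were as large as the iron changes for several members. Hmox1 averaged 9.05, 9.93 and 9.46 over the 4 arrays of numbers 1, 2 and 3, a range of 0.88 against an iron change of 0.49. Blvrb averaged 9.80, 10.49 and 10.26, a range of 0.69 against 0.60, and Cpox ranged by 0.45 against 0.22. Slc48a1 ranged by 0.38 against 0.53, and Abcb6 by 0.29 against 0.29. Replicate 1 was the lowest array in 4 of 4 groups for 5 of the 10 members (Hmox1, Blvrb, Slc48a1, Abcb6 and Cpox), as for 5.99% of all genes. What the replicate numbers stand for is not stated, and their part in the levels was not tested.

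The macrophages in the insert were followed by no member change that passed, without or with the replicate block, and 0 of 10 members had an unadjusted limma p under 0.05 for the mean macrophage effect, against 717 of the 18194 genes without the block and 1274 with it. In RAW against alone and in RAW_FAC against FAC, 0% of all genes passed in either fit, and unadjusted p-values under 0.05 were held in limma by 693 and 574 genes without the block and by 1115 and 1020 with it. For the mean macrophage effect (RAW_FAC and RAW against FAC and alone), 0.0110% of all genes passed without the block and 0.0550% with it. Hmox1 had the largest such effect of the members, 0.13 with a 95% interval of -0.04 to 0.30 with the replicate block. Its pairs went both ways, by -0.20, 0.45 and 0.15 in RAW over alone and by -0.10, 0.20 and 0.29 in RAW_FAC over FAC. Alas1 was higher with macrophages in 6 of 6 pairs, by 0.04 to 0.27, and was the 1 member of 10 that moved the same way in all of them, as did 5.89% of all genes. Its second probe set was lower in RAW_FAC over FAC in replicate 1 (-0.09) and higher in the other 5 pairs. The mean macrophage effect of the first was 0.10 (95% interval -0.03 to 0.22, adjusted p = 0.777 with the replicate block). Blvrb, at 0.00, had an interval of -0.10 to 0.10.

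No difference between the iron changes with and without macrophages passed the test. In the interaction, 0% of all genes passed in either fit, with unadjusted p-values under 0.05 in limma for 540 genes without the block and 790 with it. The difference between the 2 iron changes was 0.11 for Slc48a1 (95% interval -0.12 to 0.34 with the replicate block), 0.04 for Blvrb (-0.16 to 0.24) and 0.00 for Hmox1 (-0.35 to 0.34), each with an adjusted p of 0.999. For Hmox1 the interval reaches -0.35, against a mean iron effect of 0.49, so a sizeable difference was not detectable with these arrays. When both treatments were set against neither, in RAW_FAC against alone, 0% of all genes passed without the block (887 at an unadjusted limma p under 0.05) and 0.203% with it, and 2 of the 10 members passed with the replicate block. Blvrb rose by 0.60 ± 0.06 (adjusted p = 0.00908) and Slc48a1 by 0.62 ± 0.07 (adjusted p = 0.0144), while the change of Hmox1 was 0.63 ± 0.11 (adjusted p = 0.0594). From the within-number differences 0 of 10 members passed there, against 0.00550% of all genes, and the adjusted p was 0.125 for Blvrb and 0.125 for Slc48a1. This comparison shares its arrays with those above, so its values are no separate evidence.

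Beyond the 10 members, the other synthesis enzymes, mitochondrial partners and bilirubin disposal genes had mean iron effects of -0.10 to 0.16. Of the 6 other synthesis enzymes, 5 were measured and 0 passed, with mean iron effects of -0.05 (Urod, uroporphyrinogen decarboxylase) to 0.05 (Alad, aminolevulinic acid dehydratase). Of 7 mitochondrial partners of synthesis, 0 passed in limma, and 3 had an unadjusted p under 0.05 with the replicate block, against 12.3% of all genes; the largest effects were 0.16 for Fam210b, 0.11 for Abcb10 and 0.10 for Slc25a38, a glycine carrier. Of 4 genes of bilirubin disposal, 3 were measured and 0 passed, at -0.10 for the uptake carrier Slco1b2, -0.02 for the bile canalicular pump Abcc2 and 0.09 for Abcc3, which exports conjugates to blood. Slco1b2 and Abcc2 averaged 3.89 and 3.49, and Alas2, among the other synthesis enzymes, 4.21. These lie below every array's median, where changes can be understated.

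Of 11 genes of heme carriage and uptake, 1 passed for the mean iron effect with the replicate block, against 0.791% of all genes. From the fit without the block or the within-number differences, 0 passed. At an unadjusted limma p under 0.05 with the block, 3 of the 11 stood for that effect, against 12.3% of all genes. Hpx, which encodes the plasma heme scavenger hemopexin, had 8.13, 6.71 and 6.77 in FAC arrays, against 7.97, 6.45 and 6.70 in alone arrays. It had 8.29, 7.04 and 7.24 in RAW_FAC arrays, against 8.03, 6.45 and 6.86 in RAW arrays. Replicate 1 was the highest array in each group, by more than the iron change. The 6 pairs were higher with iron by 0.07 to 0.59, and the mean iron effect was 0.29, with an SE of 0.36 without the block and 0.05 with it (adjusted p = 0.0394 with the replicate block). Hpx also rose in RAW_FAC against alone, by 0.48 ± 0.08 (adjusted p = 0.0404 with the replicate block), where 0.203% of all genes passed. Of the others in that list, Pgrmc2, a heme chaperone, and Slc46a1, a folate carrier that also takes up heme, each had a mean iron effect of 0.12.

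Of 9 regulators, 0 passed in limma, and 5 had an unadjusted p under 0.05 for the mean iron effect with the replicate block, against 12.3% of all genes. Bach1, the heme-sensing repressor of Hmox1, had 9.64, 9.77 and 9.73 in FAC arrays, against 9.33, 9.47 and 9.66 in alone arrays. It had 9.61, 9.77 and 9.68 in RAW_FAC arrays, against 9.30, 9.56 and 9.61 in RAW arrays. Its mRNA signal was higher with iron in 6 of 6 pairs, with a mean iron effect of 0.21 ± 0.05 (adjusted p = 0.0812 with the replicate block). Mafg, a partner of both Bach1 and NRF2 on DNA, had 0.22 (adjusted p = 0.111 with the replicate block), and Nfe2l2 had 0.06 (adjusted p = 0.613 with the replicate block). Ppargc1a, a coactivator of Alas1 in fasted liver, had -0.21 (adjusted p = 0.202 with the replicate block). The 3 genes known as NRF2 targets, listed for comparison because earlier results of these data had shown them, rose with the replicate block: Slc7a11 by 0.89 ± 0.08, Nqo1 by 0.54 ± 0.06 and Gclc by 0.42 ± 0.04. From the within-number differences 1 of these 3 passed. Afp, the alpha-fetoprotein gene among the hepatocyte markers, rose by 0.45 ± 0.07 (adjusted p = 0.0168 with the replicate block), which was lost from the within-number differences; its part in the changes of the heme genes was not tested.

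**Figure D4:**
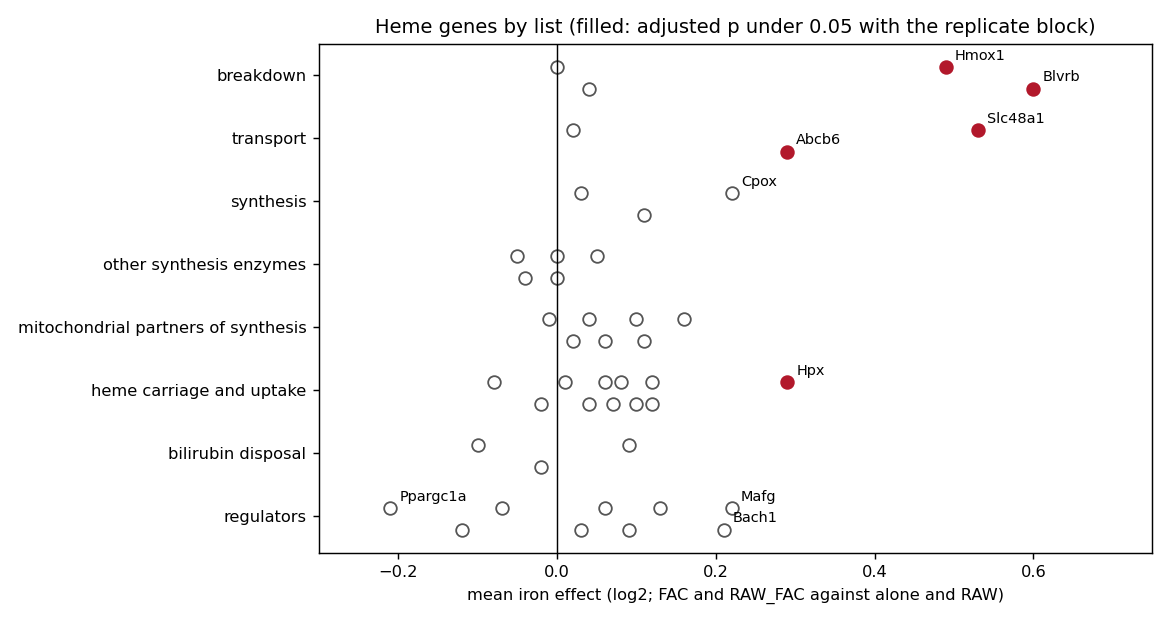
Mean iron effect (x axis, log2) with the replicate block of each measured gene in 8 lists of heme genes (y axis). Each circle is a gene, filled where its adjusted p was under 0.05; 4 members and Hpx are filled, and the 5 other synthesis enzymes lie between -0.05 and 0.05.

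Over the 12 arrays, the genes whose mean-centred log2 profiles lay nearest to those of 4 members were picked by root mean square (RMS) distance. For Hmox1, whose own RMS spread was 0.455, they were Gadd45a (RMS distance 0.144), Blvrb (0.156) and Serpinb1b (0.186). For Blvrb, with a spread of 0.419, they were Abcc4 (0.129), Pir (0.151) and Serpinb1b (0.154). For Slc48a1, with a spread of 0.331, they were Slc3a2 (0.137), Slc1a4 (0.142) and Fgfbp1 (0.154). For Alas1, with a spread of 0.128, they were Nudt22 (0.056), Ptprg (0.057) and Pih1d2 (0.061). These distances take in the differences between replicate numbers as well as those between groups. The neighbours of Hmox1, Blvrb and Slc48a1 were themselves higher with iron, by 0.34 to 0.60, and those of Alas1 were within 0.03 of 0. The 0.60 is that of Blvrb, a member. Because the neighbours were picked on the same 12 arrays, a like iron change largely follows from the choice and is no separate support.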

How the data were processed

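The deposited values are log2 signals from 12 Affymetrix mouse arrays made by the authors with affy and RMA, as listed in the submitters' processing notes without a version. No further scaling was applied. Of 45101 probe sets, 34958 had 1 gene symbol; 932 with several and 9211 with none were left out. For each gene the probe set with the highest mean was kept, which gave 18194 genes. RMA pulls low signals together, so changes of dim probe sets can be understated. The number of arrays limits the precision.

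Groups and numbers came from the sample titles. limma 3.58.1 in R 4.3.3 fitted 1 mean per group to the 12 arrays. Variances were moderated by eBayes (prior df 4.90), and two-sided p-values were adjusted by Benjamini-Hochberg over all genes. The 8 comparisons were FAC against alone, RAW_FAC against RAW, RAW against alone, RAW_FAC against FAC, RAW_FAC against alone, both mean effects and the interaction. Tables and plots used Python 3.11.15, numpy 2.4.6, pandas 2.3.3 and matplotlib 3.10.9. The fits were also run on simulated data, in which the replicate effect was the same in all groups. That run therefore could not check the SE of the replicate block where this effect differs with iron.

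Residuals of same-number arrays correlated at 0.263 to 0.529 in 18 pairs, so the numbers were taken to pair the arrays and a replicate block was fitted too. Those of other arrays correlated at -0.349 to -0.0149 in 36 pairs. Residuals from group means cancel within each group, so these negative values follow from the positive ones and add no support. The titles do not say what the numbers stand for. The same-number correlations had a median of 0.431 between arrays of equal iron treatment and 0.315 between the others. An additive term leaves that out, and its SE for iron can then come out too small; the within-number differences were tested for that reason. The alternatives were these 2 fits, leaving out each array, fits to the compared groups, centring on the median, quantile normalization, a filter on dim genes, other choices of probe set, and moderation with a trend and robust.

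The members and lists were chosen with earlier results of these data known. Named were the members, other list genes that passed in either fit, Bach1, Nfe2l2 and Tfrc, up to 3 more per list by size of mean iron effect, and the 3 nearest profiles of 4 members.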

Additional observations from a re-analysis of the deposited data

How the results depend on the processing

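Without the block, 0 of 10 members passed in each comparison, under every alternative run without it. The replicate block gave 1 member in FAC against alone, 2 in RAW_FAC against RAW, 4 for the mean iron effect and 2 in RAW_FAC against alone; it changed no other member call. Over all genes the replicate block gave 144 calls against 1 for the mean iron effect, 10 against 2 for the mean macrophage effect, and 6, 14 and 37 against 0 in FAC against alone, RAW_FAC against RAW and RAW_FAC against alone. The within-number differences gave 2 members and 6 genes for the mean iron effect, and 0 members in FAC against alone (lowest adjusted p = 0.218), RAW_FAC against RAW (0.124) and RAW_FAC against alone (0.125), where the block gave 1, 2 and 2. With the replicate block kept and 1 array left out, an alternative chosen after seeing the data, the counts ran from 0 to 1 in FAC against alone, from 0 to 2 in RAW_FAC against RAW, from 2 to 4 for the mean iron effect and from 0 to 3 in RAW_FAC against alone. Blvrb and Slc48a1 passed for the mean iron effect in 12 of these 12 fits (0.56 to 0.62 and 0.49 to 0.57), Hmox1 in 7 and Abcb6 in 4. Blvrb passed in FAC against alone in 3 of 12 and was lost without any 1 FAC or alone array, RAW_FAC replicate 2 or 3 or RAW replicate 3 (adjusted p up to 0.244). In RAW_FAC against RAW, Blvrb passed in 8 and Slc48a1 in 7, both lost without RAW_FAC replicate 2 or 3 or RAW replicate 1 or 2, and Slc48a1 also without RAW replicate 3. In RAW_FAC against alone, Blvrb passed in 9 and Slc48a1 in 8, both lost without alone replicate 2 or RAW_FAC replicate 2 or 3, and Slc48a1 also without alone replicate 3; Hmox1 passed there only without alone replicate 1 (0.76, adjusted p = 0.0323). Of 2130 alternative values of member changes, 2076 kept their direction and side of the threshold or moved by under 1 SE. Another 38 lost the call, 12 gained it, and the other 4, of Flvcr1 and Cpox, changed sign without passing in either case. Most of the 2076 were of changes not called in the fit they were set against, with no call to lose. The 38 were all calls of the replicate block, lost on leaving out 1 array. The within-number differences were set only against the fit without the block, so block calls lost there are not among the 38. The 12 were block or within-number calls set against that fit, and the Hmox1 call above. Each of the leave-out fits has 1 array fewer; the cause of the lost calls was not otherwise tested.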
